A study of Arabidopsis thaliana with 22 samples.

Results

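The Aux/IAA and GH3 genes of Arabidopsis thaliana, the families most used as readouts of the auxin response, were examined in whole seedlings of 3 genotypes grown with or without the brassinosteroid (BR) biosynthesis inhibitor BRZ. The set held 35 of the 32833 genes in the table, namely 29 Aux/IAA genes (IAA1 to IAA20 and IAA26 to IAA34) and 6 GH3 genes (GH3.1, GH3.2, GH3.3, GH3.5, GH3.6 and GH3.17). Membership was set by gene identifier, and the families were picked with earlier results of these data known. The 22 libraries were 3' mRNA sequencing libraries from 7-day-old seedlings in the Col-0 background. They comprised 3 of bes1-D with BRZ, 4 of bes1-D without BRZ, 4 of baf1 with BRZ, 4 of baf1 without BRZ, 3 of WT with BRZ and 4 of WT without BRZ. Seedlings had 250 nM BRZ in the medium throughout growth, or DMSO in its place. bes1-D is a gain-of-function mutant that carries a stabilised form of BES1, a transcription factor activated by BR signalling. The study describes it as integrated into the Col-0 background. Effects of the allele and of DNA linked to it cannot be told apart. GH3.17 lies on the same chromosome as BES1, 845 protein-coding genes after it. The baf1 mutant is a single T-DNA insertion line in the gene for the F-box protein BAF1. The study reports BAF1 as a ubiquitin ligase that promotes the breakdown of BES1. The same comparisons addressed how a stabilised BES1, the loss of BAF1 and a lowered BR supply each bear on transcript levels. Values are given as normalized reads, the authors' read numbers adjusted to a common library size, and were not divided by transcript length because each transcript gives reads from its 3' end only.

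Aux/IAA proteins are short-lived repressors. At low auxin they bind the auxin response factors (ARFs) on promoters. Auxin glues them to the TIR1/AFB receptors, which mark them for destruction, and the ARFs are released. Many Aux/IAA genes are themselves switched on by ARFs, which makes a feedback loop, and GH3 genes of the auxin-inducible kind are switched on in the same way. The GH3 enzymes examined here join amino acids to auxin and so lower its free level. BR and auxin responses meet on many of the same promoters, where BES1 and the related BZR1 bind E-box and BR-response elements.

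The promoters of IAA19, GH3.5 and IAA29 are shown because IAA19 and GH3.5 were the members whose response to BRZ differed between bes1-D and WT, and IAA29 had the largest difference between these genotypes. Each run is the 250 bases before the annotated gene start, written 5′ to 3′ on the strand of the gene, from the RefSeq TAIR10.1 assembly. Capitals mark matches, on either strand, to TGTCTC (the classical auxin response element), CACGTG (the G-box, an E-box) or CGTGTG (a BR-response element).
IAA19 (AT3G15540), chr3:5263751-5264000, plus strand: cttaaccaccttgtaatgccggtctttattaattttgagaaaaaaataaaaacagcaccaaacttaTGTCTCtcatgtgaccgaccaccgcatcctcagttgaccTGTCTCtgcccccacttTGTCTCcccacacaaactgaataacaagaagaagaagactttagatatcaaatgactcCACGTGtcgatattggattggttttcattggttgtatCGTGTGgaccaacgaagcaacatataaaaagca
GH3.5 (AT4G27260), chr4:13653329-13653578, plus strand: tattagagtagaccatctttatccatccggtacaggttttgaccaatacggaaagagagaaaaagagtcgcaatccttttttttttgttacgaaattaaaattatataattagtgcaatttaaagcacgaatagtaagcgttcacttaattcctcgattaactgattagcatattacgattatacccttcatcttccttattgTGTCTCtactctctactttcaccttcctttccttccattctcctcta
IAA29 (AT4G32280), chr4:15583082-15583331, plus strand: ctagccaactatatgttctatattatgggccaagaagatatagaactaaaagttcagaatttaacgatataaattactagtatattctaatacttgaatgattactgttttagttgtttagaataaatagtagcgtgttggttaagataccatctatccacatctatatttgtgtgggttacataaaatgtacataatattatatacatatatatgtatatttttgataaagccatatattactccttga

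The IAA19 window held 3 matches to TGTCTC, which began 184, 145 and 128 bases before the gene start, a G-box 70 bases before it and CGTGTG 33 bases before it. No other member had more than 1 match to TGTCTC. The GH3.5 window held 1 match to TGTCTC, 47 bases before the start, and the IAA29 window held none of the motifs searched. Over all members, 12 of 35 windows (34.3%) held TGTCTC, against 10.9% of 27437 promoters of the same length. TGTCGG, another sequence bound by ARFs, was found in 6 members (17.1%) and 4.16% of all promoters. CACGTG was found in 5 members (14.3%) against 6.49% of all promoters, CGTGTG in 5 (14.3%) against 5.37%, and CGTGCG in 0 members against 1.57%. CACGTG and CGTGTG can overlap, and were searched separately. These matches describe the letters in the window only.

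Levels of the members spanned a wide range. IAA2 and IAA7 had the highest means over the 22 libraries, at 1151 and 969 normalized reads, and IAA9, IAA8 and IAA16 followed at 609, 552 and 551. Of the 35 members, 23 had a mean of at least 10 in every comparison and were tested in all 9 comparisons of pairs of groups, and 3 (IAA5, IAA10 and IAA11) were tested in some. The remaining 9 (IAA6, IAA15, IAA20, IAA30, IAA31, IAA32, IAA33, IAA34 and GH3.1) were tested in none, with means of at most 3.76 and no value over 12.04. These included all 6 members that are known to lack a canonical degron, the segment by which TIR1 captures an Aux/IAA protein (IAA20 and IAA30 to IAA34). The members IAA1 and IAA14, IAA2 and IAA7, and IAA3 and IAA17 lie beside each other in pairs on chromosomes 4, 3 and 1, on opposite strands and with 0 protein-coding genes between them. In all, 17 members, 13 Aux/IAA and 4 GH3, passed an adjusted p of 0.05 in at least 1 of the 9 comparisons (limma, Benjamini-Hochberg adjustment over all genes tested).

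Facts of the libraries that touch these results were as follows. The deposited columns had totals of 3633740 to 3636540, and the depth estimated from the spacing of low values was 2090000 to 5160000 reads per library. Replicates correlated at 0.978 to 0.986 (Pearson's r across genes, 30 pairs), and no pair was identical. BAF1 checked the baf1 label, with 9.78 ± 3.03 normalized reads in baf1 and 327 ± 49.2 in WT without BRZ (SD, n = 4 each). The BR biosynthesis genes DWF4 and CPD, which BR represses, rose under BRZ in WT (log2 fold changes 1.11 and 0.75). Of the check genes BAF1, BES1, DWF4 and CPD, 2 of 3 tested rose under BRZ in baf1. In bes1-D 0 of the 4 passed under BRZ, so neither DWF4 nor CPD did. The summed level of 7 shoot markers was lower in bes1-D, at 63525 to 72568 with BRZ and 73883 to 83220 without, than in WT, at 108524 to 116026 with BRZ and 93170 to 111166 without. Of the 7, 3 were called lower in bes1-D in each comparison (LHCB1.1, LHCB1.3 and LHCB2.1). Without BRZ 3 of the 7 had a positive log2 fold change and 4 a negative one (median -0.05). With BRZ 1 was positive and 6 were negative (median -0.29). The sum of 8 root markers with BRZ was 10607 to 12247 in bes1-D and 12421 to 12997 in WT, which did not overlap, and 3 of 7 tested fell (EXPA7, COBL9 and TIP2-3). Without BRZ the sums overlapped, at 12121 to 14889 in bes1-D and 12208 to 13800.5 in WT, and 2 of 7 tested fell (TIP2-3 and CASP2). Over all genes tested, 5.3% were called lower in bes1-D with BRZ and 3.44% without it. In whole seedlings fewer cells of a type and less RNA per cell cannot be told apart, and the part of these differences in the results was not tested.

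Most of the tested GH3 genes and several abundant Aux/IAA genes were lower in bes1-D than in WT without BRZ. Of the 24 members tested, 11 fell and 0 rose, against a background of 7.52% of 16270 genes called in either direction (3.44% lower). They were 3 of 5 GH3 genes and 8 of 19 Aux/IAA genes, and the median log2 fold change was -0.41 over the members and 0.08 over all genes tested. With no filter on low values 5 members passed. GH3.5, which also acts on salicylic acid, had 40.4, 57.4, 43.2 and 50.3 normalized reads in bes1-D and 129, 115, 123 and 109 in WT (log2 fold change -1.31 ± 0.15 (SE), adjusted p = 2.68e-05). Every bes1-D library was below every WT library. GH3.6, known from the dwarf mutant dfl1, had 103, 99.9, 106 and 92.1 in bes1-D and 214, 187, 219.9 and 114 in WT. This was a log2 fold change of -0.82 ± 0.17 (SE), at an adjusted p of 0.00665. GH3.17, which prefers glutamate as the amino acid it joins to auxin, had 82.2, 61.9, 61.3 and 65.9 in bes1-D and 102, 97.2, 110.5 and 102 in WT (log2 fold change -0.60 ± 0.14 (SE), adjusted p = 0.0142), and its adjusted p was 0.0583 without bes1-D replicate 2. The groups of GH3.3 overlapped, with a log2 fold change of -0.40 ± 0.24 (SE) that did not pass the test, as did those of GH3.2 at 0.18 ± 0.33 (SE).

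**Figure D1:**
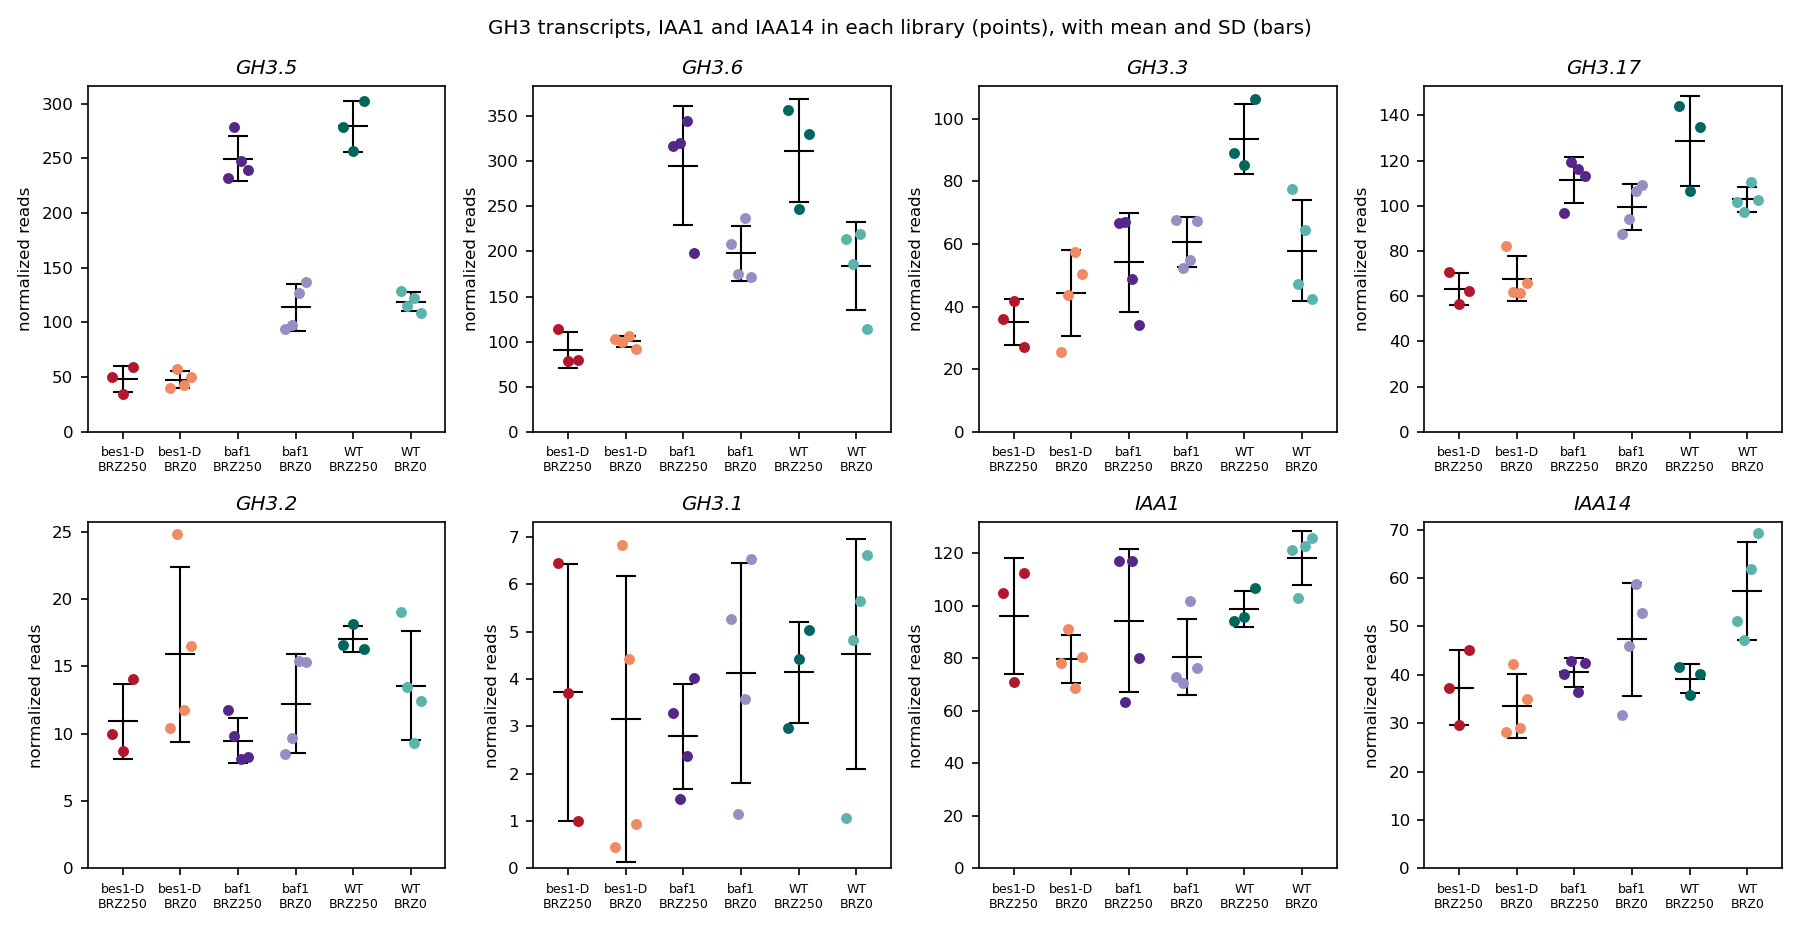
Normalized reads of the 6 GH3 genes and of IAA1 and IAA14 in every library (points), with the mean and SD of each group (bars); the groups run along the x axis and the y axes start at 0. GH3.5 lies between 35.01 and 59.3 in all bes1-D libraries and at 232.5 or more in every BRZ library of baf1 and WT, and GH3.1 is at most 6.82 in any library.

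IAA2, the most abundant member, had the smallest adjusted p among them. It had 526, 648, 544 and 553 normalized reads in bes1-D and 1514, 1617, 1661 and 1549 in WT (log2 fold change -1.48 ± 0.09 (SE), adjusted p = 1.26e-08), so that the highest bes1-D library was far below the lowest WT library. IAA29, an Aux/IAA gene induced by shade and warmth, had 23.3, 15.05, 20.8 and 9.57 in bes1-D and 89.6, 92.5, 74.1 and 40.97 in WT (log2 fold change -2.05 ± 0.29 (SE), adjusted p = 0.000199). This was the largest fold difference among the members, although WT libraries themselves spanned a wide range. IAA16 had 356, 404, 343 and 412 in bes1-D and 588, 606, 606 and 523 in WT. For IAA16 the log2 fold change was -0.62 ± 0.10 (SE), at an adjusted p of 0.000707. IAA7 (AXR2), whose stabilised form blocks auxin and gravity responses, had 811, 831, 733 and 733 in bes1-D and 1215, 1082, 1225 and 1026 in WT (log2 fold change -0.55 ± 0.09 (SE), adjusted p = 0.0011). The groups did not overlap for either gene.

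The other 4 Aux/IAA genes that fell changed less or with larger error. IAA8 had 401, 444, 499 and 467 normalized reads in bes1-D and 557, 658, 562 and 663 in WT. This was a log2 fold change of -0.43 ± 0.10 (SE), at an adjusted p of 0.0151. IAA1 had 78.1, 91.2, 68.7 and 80.5 in bes1-D and 121, 103, 123 and 126 in WT (log2 fold change -0.57 ± 0.14 (SE), adjusted p = 0.0173). IAA14 (SLR), a repressor of lateral root initiation, had 28.1, 42.3, 28.9 and 34.9 in bes1-D and 51.02, 47.1, 61.9 and 69.4 in WT. For IAA14 the log2 fold change was -0.76 ± 0.20 (SE), at an adjusted p of 0.0244. IAA3 (SHY2), which restrains the root meristem at the crossing of auxin and cytokinin signalling, had 124, 112, 92.6 and 72.7 in bes1-D and 144, 166, 139 and 139 in WT (log2 fold change -0.57 ± 0.16 (SE), adjusted p = 0.0335). None of these 4 had overlapping groups, and without BRZ 12 of 24 members had all bes1-D libraries below all WT libraries, against 5.56% of all genes tested. The calls of these genes were sensitive to single libraries: that of IAA3 was lost in 6 of 8 fits that left out a library (adjusted p up to 0.119, without bes1-D replicate 4), that of IAA14 in 4 of 8 (up to 0.0718, without bes1-D replicate 3), that of IAA8 without WT replicate 2 (0.0693) or bes1-D replicate 2 (0.0589) and that of IAA1 without bes1-D replicate 3 (0.06).

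**Figure D2:**
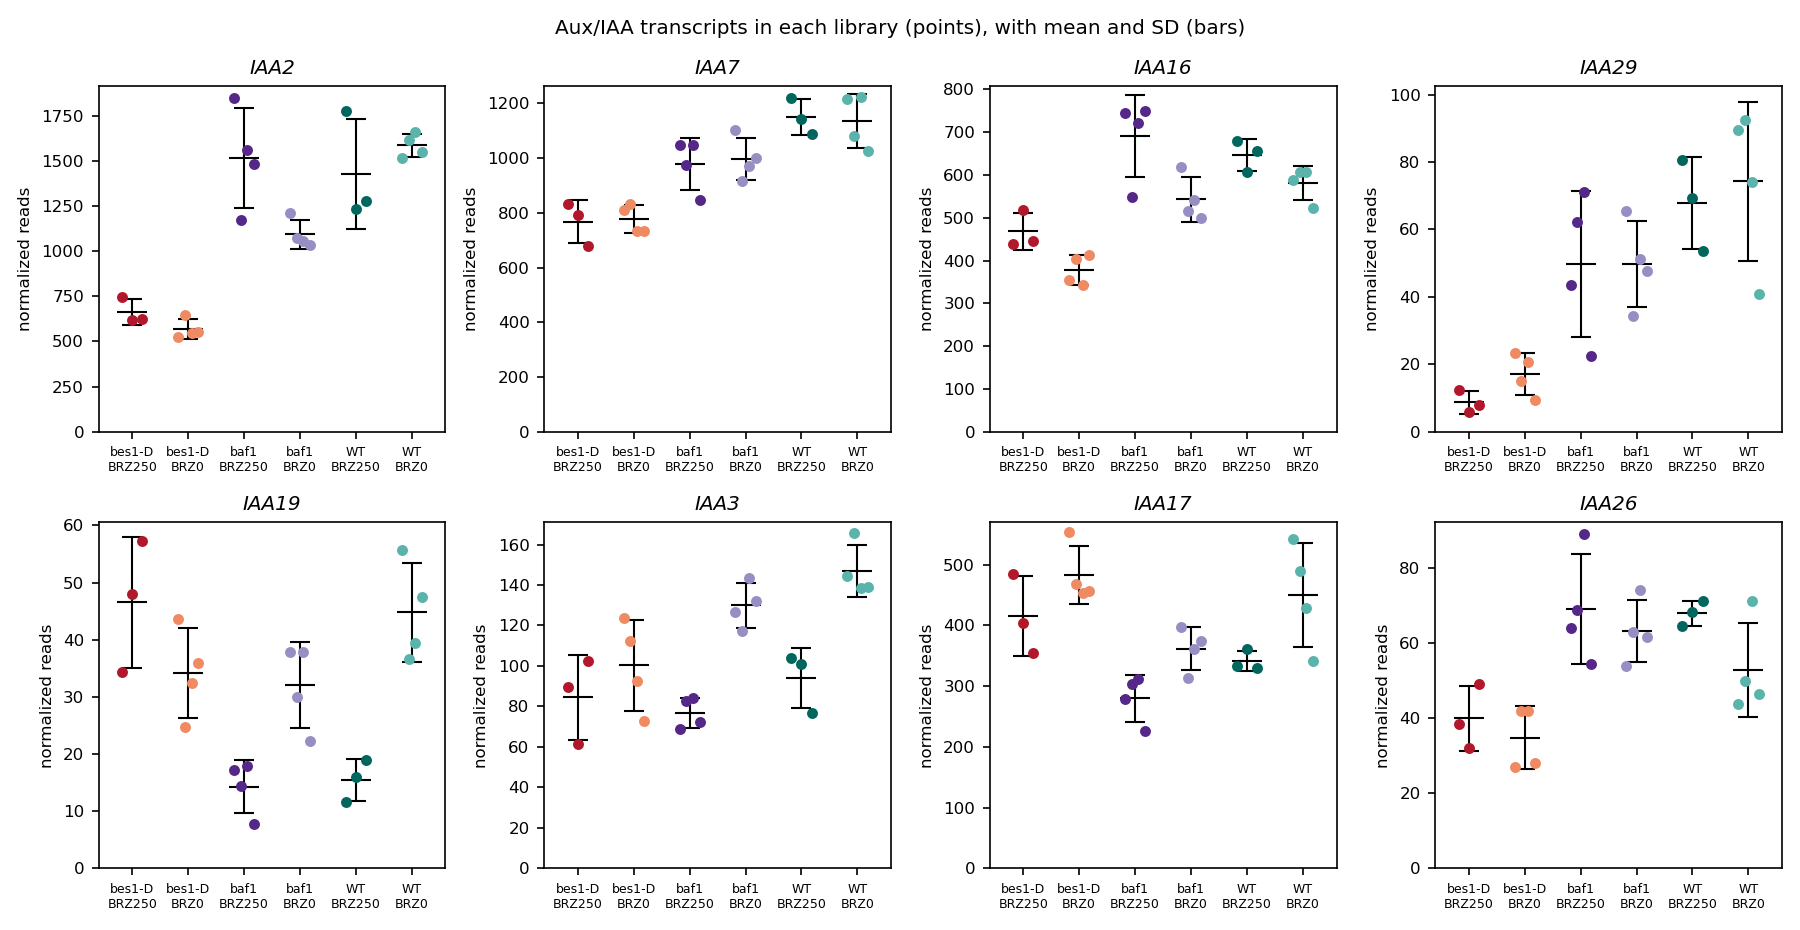
Normalized reads of 8 Aux/IAA genes in every library (points), with the mean and SD of each group (bars); the groups run along the x axis and the y axes start at 0. IAA2 is at most 744 in every bes1-D library and at least 1033 in every other library, while IAA19 is at most 18.9 in the BRZ libraries of baf1 and WT and at least 22.3 in all the others.

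With BRZ in the medium, the same GH3 genes and GH3.3 were lower in bes1-D than in WT. Of the 24 members tested 9 fell and 1 rose, against 11.1% of 16294 genes called in either direction (5.3% lower, 5.76% higher), and 2 passed with no filter on low values. GH3.5 had 50.5, 35.01 and 59.3 normalized reads in bes1-D and 279, 257 and 303 in WT. This was a log2 fold change of -2.54 ± 0.20 (SE), at an adjusted p of 1.72e-08. GH3.6 had 114, 78.6 and 79.4 in bes1-D and 357, 248 and 331 in WT (log2 fold change -1.78 ± 0.19 (SE), adjusted p = 1.16e-06). GH3.3, an auxin-induced enzyme that acts in adventitious rooting with GH3.5 and GH3.6, had 36.03, 41.8 and 27.1 in bes1-D and 89.02, 85.2 and 106 in WT. For GH3.3 the log2 fold change was -1.41 ± 0.23 (SE), at an adjusted p of 0.000266. In each of these genes every bes1-D library lay below every WT library. GH3.17 had 70.6, 56.4 and 62.3 in bes1-D and 144, 106 and 135 in WT (log2 fold change -1.01 ± 0.19 (SE), adjusted p = 0.00144). GH3.2 had 9.999, 8.704 and 14.1 in bes1-D and 16.6, 18.2 and 16.3 in WT, and did not pass the test. This was a log2 fold change of -0.62 ± 0.38 (SE), at an adjusted p of 0.337. All 5 tested GH3 genes thus had every bes1-D library below every WT library, as did 11.6% of all genes tested, and 4 of the 5 fell.

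With BRZ, the Aux/IAA genes differed between bes1-D and WT in both directions. IAA29 had 12.3, 5.77 and 8.06 normalized reads in bes1-D and 80.6, 69.5 and 53.6 in WT (log2 fold change -2.86 ± 0.32 (SE), adjusted p = 2.96e-06). IAA2 had 744, 619.8 and 624 in bes1-D and 1779, 1232 and 1276 in WT. For IAA2 the log2 fold change was -1.09 ± 0.15 (SE), at an adjusted p of 3.15e-05. IAA19 (MSG2), which acts in the bending and elongation of the hypocotyl, was the member that was higher in bes1-D. It had 34.4, 47.9 and 57.2 in bes1-D and 11.6, 15.9 and 18.9 in WT (log2 fold change 1.52 ± 0.31 (SE), adjusted p = 0.00218), and all bes1-D libraries were above all WT libraries. IAA7 had 832, 791 and 679.99 in bes1-D and 1221, 1142 and 1089 in WT (log2 fold change -0.59 ± 0.13 (SE), adjusted p = 0.00488). IAA16 had 439.5, 518 and 447 in bes1-D and 679.5, 606 and 657 in WT. This was a log2 fold change of -0.47 ± 0.13 (SE), at an adjusted p of 0.0254. IAA26, which binds phytochrome in vitro, had 38.5, 32.2 and 49.2 in bes1-D and 64.5, 68.2 and 71.2 in WT (log2 fold change -0.77 ± 0.23 (SE), adjusted p = 0.0331). The groups did not overlap for these genes, and the calls of IAA16 and IAA26 were lost in 4 and 5 of 6 fits that left out a library, with adjusted p up to 0.112 (without WT replicate 1) and 0.122 (without bes1-D replicate 3).

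The comparisons of bes1-D with WT under the 2 conditions used separate libraries. Of 24 members tested in both, 20 had the same sign, as did 62.8% of 15981 genes. Across the 24 members the log2 fold changes correlated at r = 0.75 (Spearman's rho = 0.73), and at 0.53 across all genes, where genes are not independent replicates. The 7 members that fell in both were GH3.5, GH3.6, GH3.17, IAA2, IAA7, IAA16 and IAA29. IAA1, IAA3, IAA8 and IAA14 passed without BRZ and not with it, and GH3.3, IAA19 and IAA26 with BRZ and not without it. Only for IAA19 and GH3.5 did the test of the difference itself pass, as given with the responses to BRZ.

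**Figure D3:**
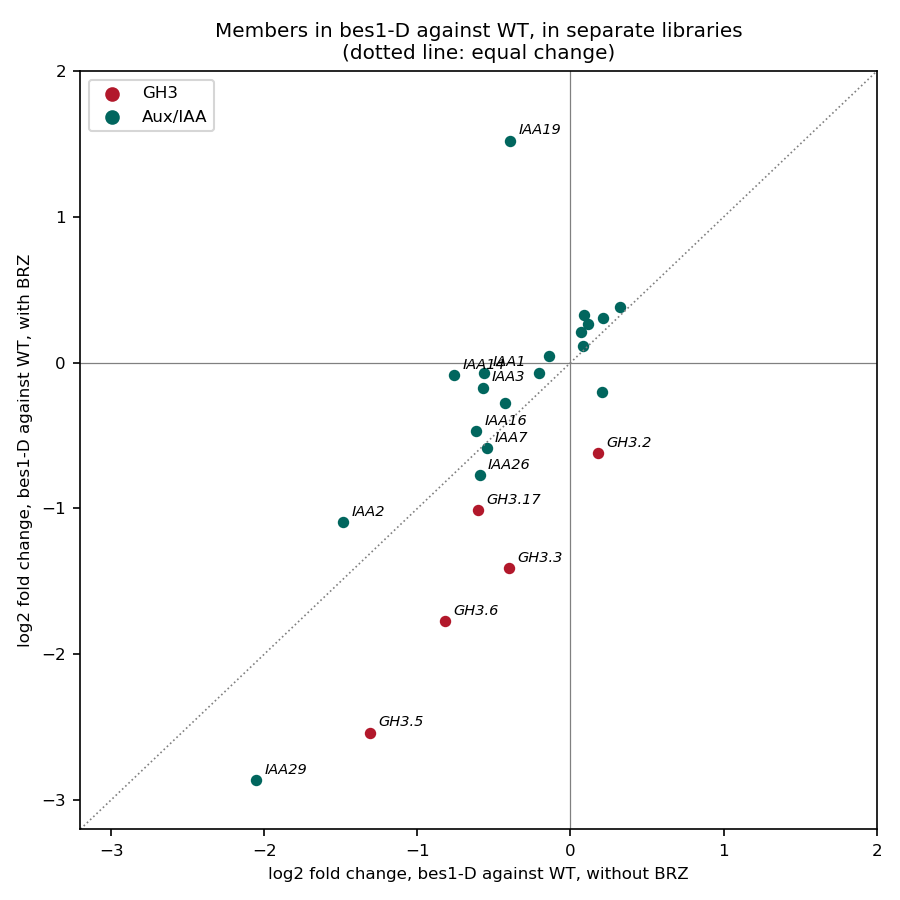
Log2 fold change of the 24 members tested in both conditions, in bes1-D against WT with BRZ (y axis) and without BRZ (x axis), with GH3 and Aux/IAA genes in separate colours. Points below the dotted line of equal change include all 5 GH3 genes, and IAA19 lies alone at the top, at 1.52 with BRZ and -0.39 without it.

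BRZ raised GH3.5 and lowered IAA19 in WT. These were the 2 of 25 members that passed, against 0.605% of 16194 genes, and with no filter on low values GH3.5 alone passed. GH3.5 had 279, 257 and 303 normalized reads with BRZ and 129, 115, 123 and 109 without it. For GH3.5 the log2 fold change was 1.23 ± 0.13 (SE), at an adjusted p of 0.000361. IAA19 had 11.6, 15.9 and 18.9 with BRZ and 55.7, 36.6, 39.4 and 47.5 without it (log2 fold change -1.48 ± 0.26 (SE), adjusted p = 0.0124), and its call was lost without WT replicate 1 of either treatment (adjusted p 0.0694 and 0.0586). The groups did not overlap for either gene. IAA3 came next by p, with 104, 101 and 76.97 with BRZ and 144, 166, 139 and 139 without it, and did not pass (log2 fold change -0.65 ± 0.15 (SE), unadjusted p = 0.000736, adjusted p = 0.0889). All 5 tested GH3 genes had a positive log2 fold change, with a median of 0.72 against 0.04 over all genes tested, and 3 of the 5 had every BRZ library above every library without BRZ (5.55% of all genes did). GH3.6 had 357, 248 and 331 with BRZ and 214, 187, 219.9 and 114 without it (log2 fold change 0.79 ± 0.20 (SE)), and GH3.3 had 89.02, 85.2 and 106 with BRZ and 77.4, 47.1, 64.6 and 42.5 without it (0.72 ± 0.21 (SE)). Neither passed after adjustment, with adjusted p of 0.129 and 0.196. At an unadjusted p under 0.05 and a fold above 1.1, the criterion of the study, 9 members were called (10.2% of all genes). The study applied this criterion to PoissonSeq p-values. Here and below it was applied to limma p-values, so the counts are not the study's own calls. With adjusted p values 5 members passed when WT replicate 5 without BRZ was left out.

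The baf1 libraries, which are separate from those of WT, were used for the same comparison. In baf1, 3 of 24 members passed under BRZ, against 1.8% of 16382 genes, and 8 met the study's criterion (12.5% of all genes). With no filter on low values 0 members and 20 genes in all passed with limma (adjusted p 0.0797 for IAA3, 0.0833 for GH3.5 and 0.411 for IAA2). GH3.5 had 233, 279, 248 and 239.8 normalized reads with BRZ and 94.03, 97.4, 127 and 137 without it (log2 fold change 1.14 ± 0.13 (SE), adjusted p = 0.000134). IAA3 had 68.6, 82.5, 83.9 and 72.1 with BRZ and 126, 117, 144 and 132 without it. This was a log2 fold change of -0.75 ± 0.13 (SE), at an adjusted p of 0.00441. Both sets of libraries were fully apart. IAA2 had 1848, 1175, 1561 and 1483 with BRZ and 1211, 1071, 1055 and 1033 without it (log2 fold change 0.46 ± 0.11 (SE), adjusted p = 0.0433), with 1 BRZ library inside the range of the untreated ones, and its call was lost in 6 of 8 fits that left out a library (adjusted p up to 0.161, without baf1 replicate 4 of the untreated group). IAA19 had 17.2, 14.4, 17.9 and 7.75 with BRZ and 37.9, 29.95, 37.9 and 22.3 without it, just short of the threshold (log2 fold change -1.14 ± 0.29 (SE), adjusted p = 0.0517). Of 24 members tested in both genotypes 15 had the same sign in baf1 and WT, against 58.8% of 15981 genes. The log2 fold changes correlated at r = 0.74 across members (rho = 0.47) and at 0.33 across all genes. Transcripts of 12 seed reserve genes summed to 145 to 1820 in baf1 with BRZ and to 7.82 to 523 in baf1 without it. Without the 2 BRZ libraries in which they were highest (replicates 2 and 4), 5 members passed, among them GH3.5 at 1.09, IAA3 at -0.76 and IAA2 at 0.64 on the log2 scale, an alternative chosen after seeing the data. Of 10 tested seed reserve genes, 1 passed under BRZ in baf1, and all 10 had a positive log2 fold change (median 2.93). Among the root and shoot markers, TIP2-3 (root) and LHCB1.3 (shoot) rose and CA1 (shoot) fell under BRZ in baf1. The part of these genes in the result was not tested.

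**Figure D4:**
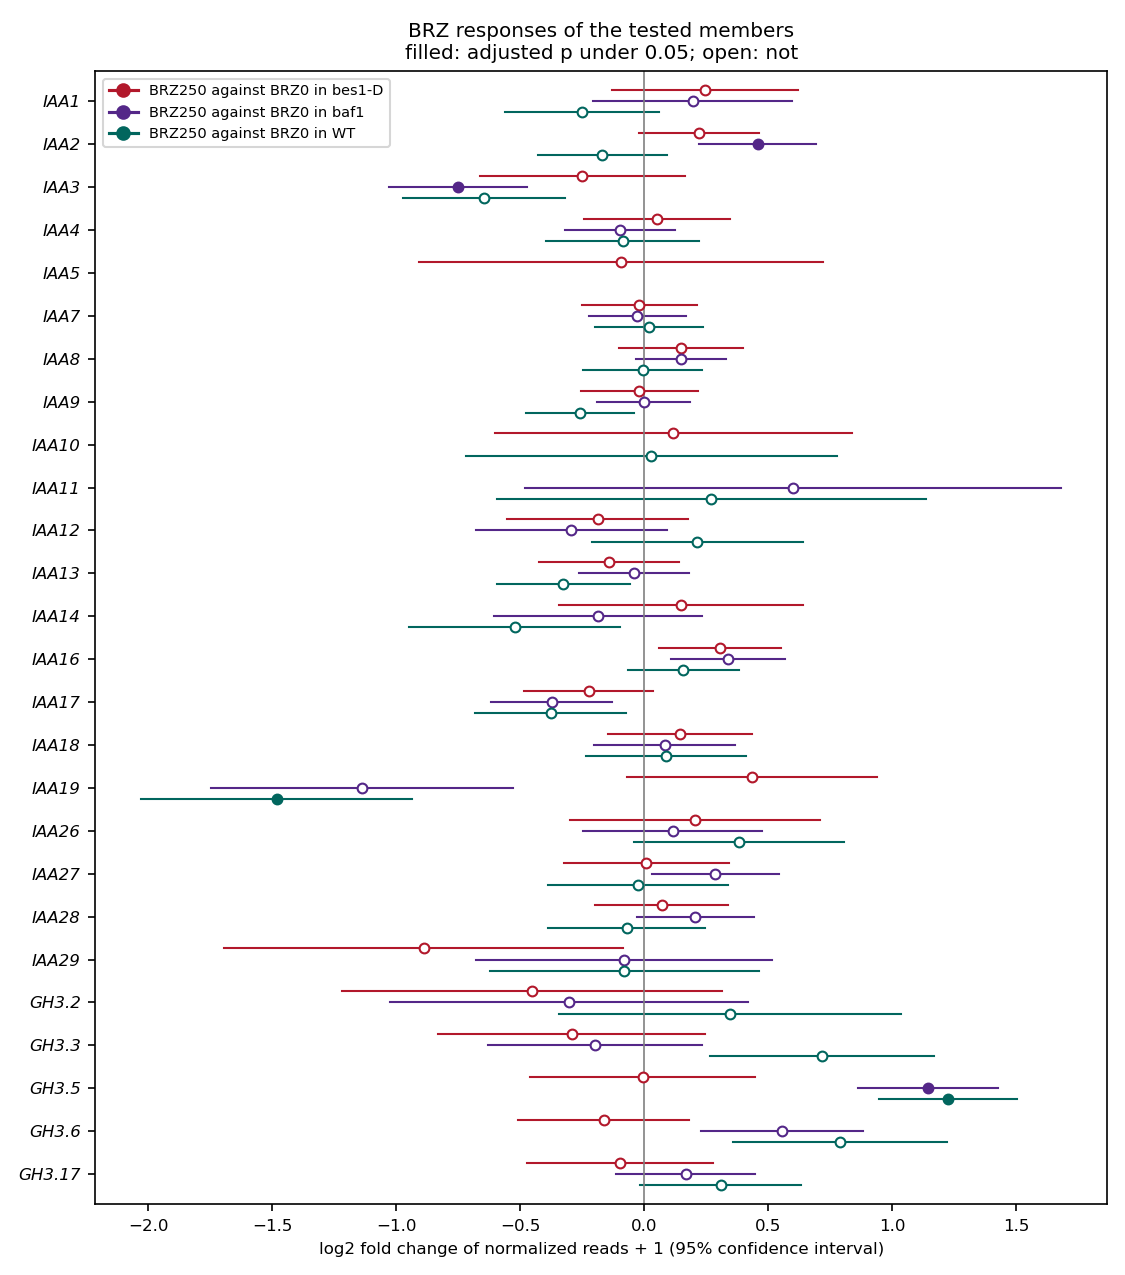
Log2 fold change of each tested member with BRZ against without BRZ in bes1-D, baf1 and WT, with 95% confidence intervals; filled points passed an adjusted p of 0.05. GH3.5 is at 1.14 in baf1 and 1.23 in WT but at -0.01 in bes1-D, and IAA19 is at -1.14 in baf1 and -1.48 in WT but at 0.43 in bes1-D.

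In bes1-D, 0 of 25 members passed under BRZ with limma, against 0.576% of 16309 genes, and 2 members had an unadjusted p under 0.05 with a fold above 1.1 (14.6% of all genes did). These were IAA16, with 439.5, 518 and 447 normalized reads with BRZ and 356, 404, 343 and 412 without it (log2 fold change 0.31 ± 0.12 (SE), unadjusted p = 0.0178, adjusted p = 0.229), and IAA29, with 12.3, 5.77 and 8.06 with BRZ and 23.3, 15.05, 20.8 and 9.57 without it (log2 fold change -0.89 ± 0.39 (SE), unadjusted p = 0.0315, adjusted p = 0.288). IAA2 came next, with 744, 619.8 and 624 with BRZ and 526, 648, 544 and 553 without it (log2 fold change 0.22 ± 0.12 (SE), unadjusted p = 0.0708, adjusted p = 0.393). For GH3.5 the log2 fold change was -0.01 ± 0.22 (SE) with a 95% confidence interval of -0.46 to 0.45, which leaves out the values of 1.14 and 1.23 in baf1 and WT. For IAA19 it was 0.43 ± 0.24 (SE), with an interval of -0.07 to 0.94. Of 24 members tested for BRZ in both bes1-D and WT, 9 had the same sign, against 47.5% of 15828 genes. Their log2 fold changes correlated at r = -0.265 (rho = -0.19), and at -0.06 across all genes. Between bes1-D and baf1, 17 of 23 members had the same sign, against 58.9% of 15970 genes (r = 0.105 across members and 0.27 across all genes).

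The test of whether the response to BRZ differed between bes1-D and WT passed for 2 of 24 members, against 0.239% of 16288 genes, and 7 met the study's criterion (13.7% of all genes). They were IAA19, whose response was higher in bes1-D by 1.92 ± 0.35 (SE) on the log2 scale (adjusted p = 0.0186), and GH3.5, whose difference was -1.23 ± 0.25 (SE), at an adjusted p of 0.03. GH3.6 (-0.95 ± 0.27 (SE), adjusted p = 0.127) and GH3.3 (-1.01 ± 0.36 (SE), adjusted p = 0.213) had differences of the same sign as GH3.5 and did not pass. In fits that left out a library the call of GH3.5 was lost in 8 of 14 (adjusted p up to 0.107, without WT replicate 3 with BRZ) and that of IAA19 in 4 of 14 (up to 0.0635, without bes1-D replicate 5 with BRZ), while IAA19 kept its sign in every fit. With no filter on low values neither call held (adjusted p 0.129 for IAA19 and 0.16 for GH3.5), and 6 genes in all passed. With the replicate block described below the call of GH3.5 held and that of IAA19 was lost. Between baf1 and WT the response differed for 0 of 25 members and for 0 of 16315 genes with limma after adjustment, with 944 genes (5.79%) at an unadjusted p under 0.05 and a fold above 1.1. IAA2 had the smallest p among the members (0.63 ± 0.18 (SE), unadjusted p = 0.0018, adjusted p = 0.795), followed by GH3.3 (-0.91 ± 0.31 (SE), unadjusted p = 0.00753).

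A pair of weakly expressed members were, like IAA19, higher in bes1-D than in the other genotypes with BRZ. They were singled out after their values were seen and were too low to be tested against WT. IAA5 had 16.8, 7.14 and 10.04 normalized reads in bes1-D with BRZ, 0.62, 2.29, 3.19 and 0.28 in baf1 with BRZ and 2.88, 0.38 and 2.36 in WT with BRZ. Without BRZ it had 12.1, 10.3, 8.28 and 16.7 in bes1-D, 9.403, 3.26, 3.53 and 2.31 in baf1 and 8.93, 4.7997, 5.62 and 5.54 in WT. Unlike IAA19, IAA5 was thus mostly higher in bes1-D than in WT without BRZ too, although these groups overlapped. IAA6, the closest relative of IAA19 in the family, had 8.22, 8.13 and 12.04 in bes1-D with BRZ, against at most 1.60 in baf1 with BRZ and at most 3.62 in WT with BRZ. Its values without BRZ were 1.25, 5.04, 9.26 and 4.86 in bes1-D, 2.15, 1.14, 3.57 and 3.35 in baf1 and 3.42, 5.80, 1.81 and 4.18 in WT. In both genes the 3 bes1-D libraries with BRZ were above all 7 BRZ libraries of the other genotypes. The share of all genes with this order was not counted. These values are low, and the differences between genotypes carry no test. IAA5 was tested only for BRZ in bes1-D, where it did not pass.

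In baf1 without BRZ, IAA2 was the member that passed against WT, of 24 tested, against 0.129% of 16235 genes. It had 1211, 1071, 1055 and 1033 normalized reads in baf1 and 1514, 1617, 1661 and 1549 in WT (log2 fold change -0.54 ± 0.08 (SE), adjusted p = 0.00558), and the groups did not overlap. The call was lost with no filter on low values (adjusted p 0.108, 9 genes in all passing) and without WT replicate 2 (adjusted p 0.0574) or baf1 replicate 4 (0.0527), while the log2 fold change stayed between -0.59 and -0.51 in all fits that left out a library. IAA1 had 72.9, 70.7, 102 and 76.3 in baf1 and 121, 103, 123 and 126 in WT (log2 fold change -0.56 ± 0.14 (SE), unadjusted p = 0.00132, adjusted p = 0.168), and IAA13 had 247, 209, 199.96 and 212 in baf1 and 265, 289, 251 and 257 in WT (log2 fold change -0.29 ± 0.10 (SE), unadjusted p = 0.0122, adjusted p = 0.353). Neither passed, although the groups of both were apart, as were those of 2.78% of all genes in the same direction. Of the 24 members, 19 had a negative log2 fold change, with a median of -0.18 against 0.04 over all genes. At the study's criterion 8 members were lower and 0 higher, all of them Aux/IAA genes (IAA1, IAA2, IAA7, IAA13, IAA17, IAA19, IAA28 and IAA29), against 10.3% of all genes in either direction (4.27% lower). At that criterion 3 of 8 root markers were lower in baf1 and 0 higher (TIP2-3, CASP1 and CASP2), TIP2-3 also after adjustment (log2 fold change -0.68). Of the 8, 4 had a positive log2 fold change and 4 a negative one (median -0.04). At the same criterion 2 of 7 shoot markers were higher in baf1 and 0 lower. The sums of the root markers were 11473 to 12743 in baf1 and 12208 to 13800.5 in WT. Those of the shoot markers were 103728 to 111633 in baf1 and 93170 to 111166 in WT. The part of these differences was not tested. No GH3 gene passed in baf1, with GH3.5 at -0.08 ± 0.14 (SE) and a 95% confidence interval of -0.38 to 0.22. The baf1 and bes1-D comparisons shared the 4 WT libraries, so that the values of IAA2 (-0.54 in baf1 and -1.48 in bes1-D) and IAA1 (-0.56 and -0.57) are not independent.

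**Figure D5:**
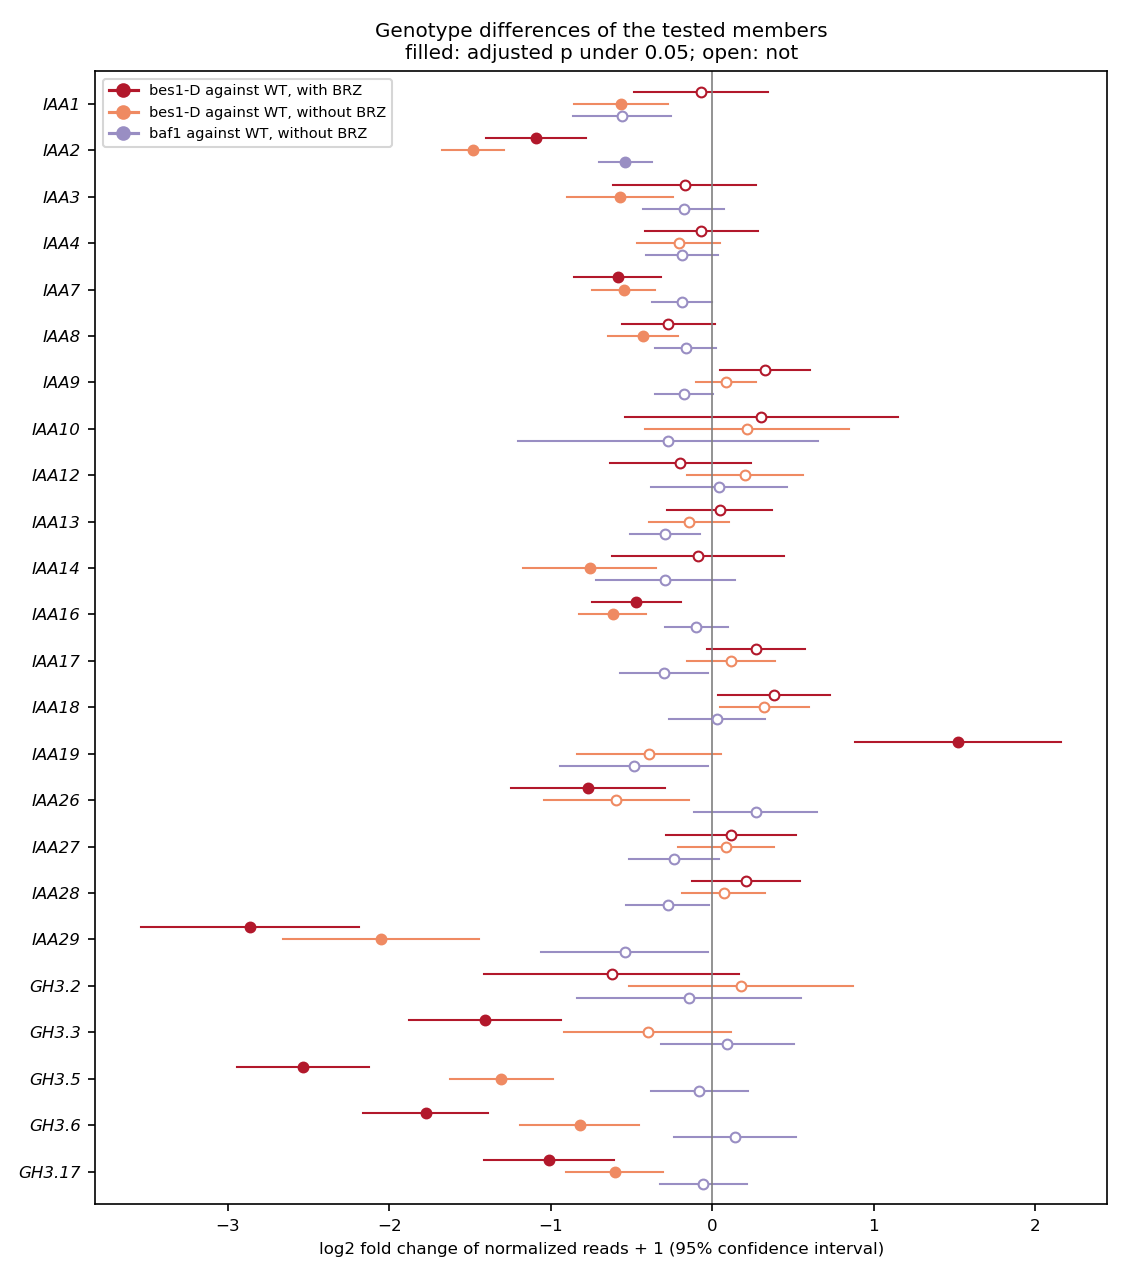
Log2 fold change of each tested member in bes1-D against WT with and without BRZ, and in baf1 against WT without BRZ, with 95% confidence intervals; filled points passed an adjusted p of 0.05. IAA2 is the filled point of baf1, at -0.54, and 4 of the 5 GH3 genes are filled and left of 0 in bes1-D with BRZ.

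With BRZ, 0 of 25 members differed between baf1 and WT with limma after adjustment, against 0.0488% of 16379 genes (8 in all), and 5 members had an unadjusted p under 0.05 with a fold above 1.1 (5.6% of all genes did), each lower in baf1. GH3.3 had 66.5, 67.1, 48.9 and 34.1 normalized reads in baf1 and 89.02, 85.2 and 106 in WT (log2 fold change -0.82 ± 0.22 (SE), unadjusted p = 0.00215, adjusted p = 0.482). IAA12 (BDL), a repressor of embryonic root formation, had 49.4, 60.3, 53.9 and 53.3 in baf1 and 89.8, 74.1 and 63.8 in WT (log2 fold change -0.47 ± 0.18 (SE), unadjusted p = 0.0207, adjusted p = 0.842). GH3.2 had 11.8, 9.801, 8.13 and 8.29 in baf1 and 16.6, 18.2 and 16.3 in WT (log2 fold change -0.79 ± 0.34 (SE), unadjusted p = 0.0315, adjusted p = 0.862). The 4 baf1 libraries were below the 3 WT libraries in each of these genes, as they were in 3.23% of all genes, and IAA17 and IAA7 made up the 5. IAA2 had 1848, 1175, 1561 and 1483 in baf1 and 1779, 1232 and 1276 in WT, with a log2 fold change of 0.09 ± 0.15 (SE) and an interval of -0.23 to 0.41. Of 24 members tested in baf1 against WT both with and without BRZ, 15 had the same sign, against 54.3% of 15953 genes. The log2 fold changes correlated at r = -0.115 across members (rho = -0.09) and at 0.22 across all genes. Of 11 tested seed reserve genes, 8 were higher in baf1 with BRZ at the study's criterion and 0 after adjustment. Their part in the result was not tested.

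Compared directly with baf1 without BRZ, bes1-D had 8 members lower and 3 higher, of 24 tested, against 6.76% of 16342 genes (3.26% lower, 3.49% higher), and 17 met the study's criterion, against 18.3%. With no filter on low values 3 members passed, all lower. GH3.5 fell (log2 fold change -1.23 ± 0.16 (SE), adjusted p = 2.58e-06), as did GH3.6, with 103, 99.9, 106 and 92.1 normalized reads in bes1-D and 208, 175, 237 and 172 in baf1 (log2 fold change -0.96 ± 0.12 (SE), adjusted p = 1.47e-06), and GH3.17, with 87.6, 94.0001, 106 and 109 in baf1. For GH3.17 the log2 fold change was -0.55 ± 0.14 (SE), at an adjusted p of 0.0155, and the call was lost in 3 of 8 fits that left out a library (adjusted p up to 0.07, without baf1 replicate 4). Among the Aux/IAA genes IAA2 (log2 fold change -0.94 ± 0.08 (SE), adjusted p = 2.03e-09), IAA29 (log2 fold change -1.51 ± 0.26 (SE), adjusted p = 0.000151), IAA16 (log2 fold change -0.52 ± 0.09 (SE), adjusted p = 0.000251) and IAA7 (log2 fold change -0.36 ± 0.08 (SE), adjusted p = 0.00403) fell. In baf1, IAA29 had 65.3, 34.4, 51.3 and 47.6, IAA16 had 618, 517, 541 and 499 and IAA7 had 1102, 917, 971 and 999. IAA26 had 27.1, 42.02, 41.9 and 28.05 in bes1-D and 53.8, 62.99, 74.04 and 61.7 in baf1 (log2 fold change -0.86 ± 0.19 (SE), adjusted p = 0.00332).

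Higher in bes1-D than in baf1 without BRZ were 3 Aux/IAA genes. IAA17 (AXR3), whose stabilised form disrupts root gravitropism and root hairs, had 553, 468, 453 and 457 normalized reads in bes1-D and 398, 314, 361 and 374 in baf1 (log2 fold change 0.42 ± 0.09 (SE), adjusted p = 0.00426). IAA28, which acts in lateral root founder cells, had 231, 232, 197 and 228 in bes1-D and 184, 184, 176 and 156 in baf1. For IAA28 the log2 fold change was 0.35 ± 0.11 (SE), at an adjusted p of 0.0425. IAA9, whose counterpart in tomato acts in fruit set and leaf shape, had 718, 687, 659 and 648 in bes1-D and 618, 539, 541 and 565 in baf1 (log2 fold change 0.26 ± 0.08 (SE), adjusted p = 0.0494). The groups were apart in all 3, but when the libraries were rescaled by median-of-ratios size factors 1 member was higher and 9 were lower. IAA9 (adjusted p 0.125) and IAA28 (0.085) then no longer passed, and IAA8 passed as lower (adjusted p 0.0265, against 0.0662 as deposited). The calls of IAA9 and IAA28 were also lost in 7 and 6 of 8 fits that left out a library.

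With BRZ, 7 members were lower and 2 higher in bes1-D than in baf1, of 24 tested, against 7.06% of 16367 genes (3.49% lower, 3.57% higher), and 2 passed with no filter on low values. GH3.5 (log2 fold change -2.38 ± 0.18 (SE), adjusted p = 4.16e-07) and GH3.6, with 114, 78.6 and 79.4 normalized reads in bes1-D and 317, 321, 344 and 198 in baf1 (log2 fold change -1.68 ± 0.19 (SE), adjusted p = 3.37e-05), fell most among the GH3 genes. GH3.17 had 70.6, 56.4 and 62.3 in bes1-D and 96.8, 119.6, 116 and 113 in baf1. For GH3.17 the log2 fold change was -0.81 ± 0.17 (SE), at an adjusted p of 0.00578. IAA2 (log2 fold change -1.18 ± 0.14 (SE), adjusted p = 6.03e-05), IAA29 (log2 fold change -2.32 ± 0.37 (SE), adjusted p = 0.000762), IAA16 (log2 fold change -0.55 ± 0.14 (SE), adjusted p = 0.0191) and IAA26 (log2 fold change -0.77 ± 0.22 (SE), adjusted p = 0.0409) fell. In baf1 with BRZ, IAA29 had 43.5, 62.2, 71.2 and 22.4, IAA16 had 745, 549.8, 721 and 748 and IAA26 had 64.1, 68.9, 88.996 and 54.4. IAA19 rose (log2 fold change 1.67 ± 0.31 (SE), adjusted p = 0.00326), and so did IAA17, with 485, 405 and 355 in bes1-D and 279, 304, 312 and 226 in baf1 (log2 fold change 0.56 ± 0.15 (SE), adjusted p = 0.0293). The call of IAA17 was lost without the 2 baf1 libraries of highest seed reserve transcripts (adjusted p 0.096) and in 3 of 7 fits that left out a library (up to 0.116, without bes1-D replicate 1). Those of IAA26 and IAA16 were lost in 5 and 4 of the 7 fits. The bes1-D libraries of these comparisons are those compared with WT above, so the directions are not independent of that comparison. All 10 tested seed reserve genes were called lower in bes1-D than in baf1 with BRZ (median log2 fold change -4.26). Their part in the result was not tested.

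Genes that act around the members in the auxin pathway were taken from lists of receptors, ARFs and enzymes. In bes1-D against WT without BRZ, 0 of 6 receptors, 1 of 5 activating ARFs, 1 of 10 repressing ARFs, 1 of 5 tested genes of auxin synthesis, 0 of 4 genes of auxin oxidation and amide hydrolysis and 0 of 2 tested further GH3 genes passed, all of them lower. Over all genes tested, 7.52% were called (3.44% lower). With BRZ the counts were 2, 1, 2, 1, 0 and 0 (of 4 tested for synthesis), again all lower, against 11.1% of all genes called (5.3% lower). ARF6, an activator of the elongation and flower responses, had 42.1, 57.6, 61.5 and 76.6 normalized reads in bes1-D and 109, 114, 109 and 113 in WT without BRZ (log2 fold change -0.92 ± 0.17 (SE), adjusted p = 0.00199), and 58.6, 56.5 and 85.4 in bes1-D and 169, 138 and 186 in WT with it. For ARF6 the log2 fold change was -1.30 ± 0.20 (SE), at an adjusted p of 0.000155. YUC9, which makes auxin from indole-3-pyruvate, had 7.695, 1.14, 8.34 and 10.6 in bes1-D and 32.2, 20.2, 32.1 and 14.3 in WT without BRZ (log2 fold change -1.87 ± 0.47 (SE), adjusted p = 0.0207), and 6.42, 6.598 and 2.02 in bes1-D and 31.8, 13.7 and 46.1 in WT with it (log2 fold change -2.35 ± 0.49 (SE), adjusted p = 0.00299). The libraries of both genes were apart between the genotypes in the bes1-D comparisons, as they were for the receptor TIR1 under BRZ, where it had 75.1, 74.6 and 114 in bes1-D and 141, 149.6 and 149.7 in WT. For TIR1 the log2 fold change was -0.76 ± 0.19 (SE), at an adjusted p of 0.0119. With BRZ, AFB5, a receptor that also binds the herbicide picloram, was lower in bes1-D than in WT (log2 fold change -0.50 ± 0.14 (SE), adjusted p = 0.0274). So was ARF18 (log2 fold change -0.71 ± 0.22 (SE), adjusted p = 0.0387). ARF2, a repressor of leaf growth, was lower in bes1-D in both conditions (log2 fold changes -0.43 with BRZ and -0.39 without).

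In bes1-D against baf1, the same lists gave ARF6, ARF2 and YUC9 lower without BRZ, and these with ARF18 lower with BRZ, at counts of 0 of 6 receptors, 1 of 5 activating ARFs, 1 or 2 of 10 repressing ARFs and 1 of 5 synthesis genes. Over all genes tested, 6.76% were called without BRZ (3.26% lower) and 7.06% with it (3.49% lower). BRZ raised ARF6 in baf1, with 206, 152, 209.9 and 175 normalized reads with BRZ and 105, 128, 124 and 87.3 without it (log2 fold change 0.74 ± 0.15 (SE), adjusted p = 0.00974), where 1.8% of all genes were called. No other gene of these lists passed in the responses to BRZ or in baf1 against WT.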

How the data were processed

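Per the labels and the study's methods, RNA of whole 7-day-old seedlings was made into QuantSeq 3' libraries and sequenced by the authors. The submitters' processing notes name STAR, HTSeq, edgeR and the build TAIR10, with versions not given in the sources used here. The deposited values are a signal of normalized reads, not whole counts, adjusted by the authors to totals of 3633740 to 3636540 in each of the 22 libraries; no count model was therefore used, and the raw depth is known only as an estimate (2090000 to 5160000 reads).

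Each comparison was fitted on its own groups with limma 3.58.1 (R 4.3.3), with values taken as log2 after adding 1, moderation of variances along a trend, and only genes averaging 10 or more over the fitted libraries. Fold changes are on that scale, which understates changes of low genes. P-values were adjusted by Benjamini-Hochberg over all genes tested, at 0.05, and intervals are 95%. On simulated data for bes1-D against WT without BRZ (16206 genes), 51% of 98 genes changed by 1 on the log2 scale and 100% of 91 changed by 2 were called, with 8 false calls. The simulation assumed the same dispersion for every gene and divided counts by depth, without the authors' adjustment. Its shares therefore do not measure the power or error of the fits to the deposited values. Samples were grouped by their labels, which call them biological replicates and do not say how cultures were separated, so that p-values measure the spread between these samples. The members and gene lists were chosen with earlier results of these data known. All 35 members were given at least by count or range, and in full those with an adjusted p under 0.05 in any pair of groups, plus the smallest p-values where fewer than 3 passed; IAA5 and IAA6 were singled out after their values were seen. Reads shared between near-identical GH3 or Aux/IAA copies could not be told apart. Promoters and neighbours came from the RefSeq TAIR10.1 assembly, with no coordinates taken from the reads. Alternatives were other pseudocounts (0.1 and 5), filters (none, 50), scaling, all 22 libraries in the fit, a replicate block, single libraries left out and the study's criterion (unadjusted p under 0.05, fold above 1.1). That criterion was applied to limma p-values, whereas the study used PoissonSeq. Protein sequences were not analysed here.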

Additional observations from a re-analysis of the deposited data

Results flagged for a closer look

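The response to BRZ differed between bes1-D and WT by a test of the difference itself for IAA19 (1.92 on the log2 scale) and GH3.5 (-1.23 on the log2 scale). A library stood far from the other 3 of its group in 3 of 68 groups of 4 libraries examined, where chance alone gives about 1 in 20. IAA16 had 549.77 normalized reads in baf1 replicate 2 with BRZ, against 721 to 748 in the others. IAA17 had 552.938 in bes1-D replicate 1 without BRZ, against 453 to 468 in the others. IAA28 had 197.396 in bes1-D replicate 3 without BRZ, against 228 to 232 in the others.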

How the results depend on the processing

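No member that passed changed sign under any alternative run. With no filter on low values the number of members that passed was 0 in baf1 against WT, 5 in bes1-D against WT and 3 in bes1-D against baf1 (all without BRZ), 1 for BRZ in WT, 0 for BRZ in baf1, 2 in bes1-D against WT and 2 in bes1-D against baf1 (both with BRZ), and 0 for the interaction of bes1-D with BRZ; the cause was not tested. With a minimum mean of 50 it was 1 for BRZ in WT and 1 for that interaction. At the study's criterion it was 8 (baf1 against WT) and 17 (bes1-D against baf1) without BRZ, 9, 8 and 2 for BRZ in WT, baf1 and bes1-D, 5 for baf1 against WT with BRZ, and 3 and 7 for the interactions of baf1 and bes1-D with BRZ. Leaving out the baf1 libraries of highest seed reserve transcripts gave 5 for BRZ in baf1. Replicate numbers are shared between groups and nothing in the labels ties them. Correlations of the deviations of same-numbered libraries lay between -0.21 and 0.26 and were over 0.1 in 8 of 25 pairs, and no comparison with 3 or more pairs had every one over 0.1. Libraries numbered 1 correlated positively in 9 of 9 pairs and best with their own number in 7, so that a shared source of these was not settled. With the replicate block the number of members was 4 for baf1 against WT without BRZ, 6 for BRZ in WT, 5 for BRZ in baf1 and 1 for the interaction of bes1-D with BRZ, where IAA19 had an adjusted p of 0.0673 and GH3.5 of 0.0474. In the block fits of 2 groups, libraries whose number the other group lacks carried no weight. In bes1-D against WT without BRZ, rescaling by size factors moved the share of higher calls over all genes to 35.6%, from 54.3% as deposited, while all 11 members stayed lower.

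Over fits that left out 1 library, the members that passed numbered 0 to 3 in baf1 against WT (0 without WT replicate 2 or baf1 replicate 4, 3 without WT replicate 5), 8 to 11 in bes1-D against WT and 8 to 11 in bes1-D against baf1, all without BRZ. With BRZ they numbered 0 to 0 in baf1 against WT, 8 to 9 in bes1-D against WT and 6 to 11 in bes1-D against baf1. For BRZ they numbered 1 to 5 in WT, 2 to 4 in baf1 and 0 to 0 in bes1-D, and for the interactions 0 to 0 (baf1) and 0 to 3 (bes1-D; 0 without bes1-D replicates 2 or 3 of the untreated group or replicate 3 with BRZ). Of 373 fits of single members that passed, 73 lost the call without a library. Of 49 member calls, 36 were lost with no filter (13 members passed in place of 49, summed over the comparisons, and 1469 of all genes in place of 5840), 3 in the fit on all libraries, 2 each with size factors and the replicate block, 1 with a pseudocount of 0.1 and 0 with a pseudocount of 5. Members averaging under 10 normalized reads were left out by the filter, and what the estimated depth allows for them was not measured.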
